A study of Mus musculus with 11 samples.

Results

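The genes described here were 10 regulators of the cell cycle and of the p53 pathway, taken by name from the 28222 genes of a count table of mouse mesenchymal stem cells (MSCs): Cdkn1a, Cdkn1b, Cdkn2a, Cdkn2b, Cdkn2c, Trp53, Mdm2, Ccng1, Rb1 and Glb1. All 10 were in the table and all 10 passed the filter on low counts in every comparison. The series asked how bone MSCs of young and old mice differ, and held 11 RNA sequencing libraries in 3 batches named A, B and C. Batch A gave 4 libraries of young mice of 3 to 5 months (A young), batch B gave 2 libraries of young mice (B young) and 2 of old mice of 18 to 22 months (B old), and batch C gave 3 libraries of old mice (C old). Every culture, young or old, was kept at 2% O2, with no genetic change or drug named in the labels. The study's methods, written for its oxygen experiment, describe MSCs grown out of hind limb bones of male C57BL/6N mice and sorted as CD45-/TER-119-/Sca-1+/CD140a+ cells; the labels name neither the strain nor the sort, and do not say what a batch shared. They also do not say whether the libraries of a group came from separate animals or cultures, so p-values measure the spread between these libraries, which may be technical.

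The p53 protein, encoded by Trp53, is a transcription factor that responds to DNA damage and other stress by switching on genes for arrest, repair and death. Mdm2, itself a p53 target, encodes the ligase that marks p53 for degradation, and Ccng1 encodes cyclin G1, another p53 target. Cdkn1a encodes p21, the best known arrest gene downstream of p53, and Cdkn1b encodes p27; both bind and hold back cyclin-dependent kinases. Cdkn2a encodes p16Ink4a and, from an upstream start and another reading frame, p19Arf, which restrains Mdm2. Cdkn2b (p15) and Cdkn2c (p18) belong with p16 to the INK4 inhibitors of Cdk4 and Cdk6, the kinases that inactivate the retinoblastoma protein encoded by Rb1, which holds E2F factors in check. Glb1 encodes the lysosomal beta-galactosidase behind the staining used to mark senescent cells. In cultured mesenchymal cells p16, p21 and this enzyme are widely used as readouts of senescence.

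A start of 2 of these genes carried a p53 site in the RefSeq promoter sequences (build GRCm38.p6). These starts are shown because Cdkn1a and Ccng1 are the p53 targets with the highest levels per exon length among the 10. The p53 site was searched as 20 bases on both strands with up to 2 mismatches in the 250 bases before each start. It was found at 217 of 32851 starts of all genes (0.661%), at 2 of the 12 starts of the 9 genes with an entry (Rb1 was not among them) and at 1 of 32 starts of 22 other p53 targets. Capitals mark the p53 site in the sequences of Cdkn1a (chr17:29090729-29090975, plus strand, site 51 bases before the start) and Ccng1 (chr11:40755312-40755536, minus strand, site 195 bases before the start), each with 1 mismatch. The other Cdkn1a start, further downstream (chr17:29093519-29093818, plus strand), had no p53 site by this rule, with 5 mismatches at best. Bases that the gene annotation places in an exon were left off, and a match is a description of letters, not of binding.
Cdkn1a: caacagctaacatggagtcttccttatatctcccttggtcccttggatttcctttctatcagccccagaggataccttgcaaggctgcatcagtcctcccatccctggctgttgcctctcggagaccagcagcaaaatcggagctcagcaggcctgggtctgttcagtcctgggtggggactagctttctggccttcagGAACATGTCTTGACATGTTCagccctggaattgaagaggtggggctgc
Ccng1: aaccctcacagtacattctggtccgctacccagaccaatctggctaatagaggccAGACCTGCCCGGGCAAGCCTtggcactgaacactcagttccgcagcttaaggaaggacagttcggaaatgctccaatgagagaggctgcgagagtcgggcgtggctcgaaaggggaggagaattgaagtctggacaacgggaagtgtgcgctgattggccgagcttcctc

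The upstream and downstream starts of Cdkn2a are shown because the table counts p16Ink4a and p19Arf together. Capitals mark an E2F motif, searched on both strands as TTTCCCGC, TTTGGCGC, TTTCGCGC and TTTGCCGC, which was present at 611 of 32851 starts (1.86%). The upstream, p19Arf start (chr4:89294654-89294869, minus strand) held 1 such motif, and the downstream, p16Ink4a start (chr4:89282193-89282442, minus strand) held 0.
Cdkn2a, upstream: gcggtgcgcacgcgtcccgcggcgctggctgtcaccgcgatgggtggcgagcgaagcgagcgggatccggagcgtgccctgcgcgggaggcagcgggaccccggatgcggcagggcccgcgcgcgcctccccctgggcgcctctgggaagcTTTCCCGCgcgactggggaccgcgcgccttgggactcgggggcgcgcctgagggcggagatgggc
Cdkn2a, downstream: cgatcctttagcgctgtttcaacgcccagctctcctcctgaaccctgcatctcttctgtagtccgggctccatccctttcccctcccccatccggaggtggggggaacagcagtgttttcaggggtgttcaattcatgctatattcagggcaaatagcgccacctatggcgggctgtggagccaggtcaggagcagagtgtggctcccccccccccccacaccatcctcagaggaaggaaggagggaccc

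The libraries held 11969336 to 20315934 counts, and the 10 genes were covered by 200 to 12015 reads in each library. A count of 3 corresponded to 0.148 to 0.251 CPM, the unit used throughout, in which counts are put on a common library total after TMM factors of 0.889 to 1.16. The MSC label was checked against 11 markers: Ly6a, which encodes Sca-1, lay between 270.1 and 777.9 CPM and Pdgfra, which encodes CD140a, between 109 and 289 CPM over the groups. Nt5e was low, with group means of 9.12 to 23.3 CPM. The summed CPM of the 11, made up mostly of Col1a1 and Col1a2, was 90706 to 100595 in A young and 46223 to 76044 in B young. It was 41208 to 43467 in B old and 36654 to 38765 in C old. Haematopoietic transcripts were also present, and the summed CPM of 16 leukocyte and macrophage markers was 764 to 1665 in A young, 433 to 894 in B young, 904 to 1305 in B old and 157 to 184 in C old. Ptprc, which encodes CD45, was at 3.47 to 22.2 CPM. Erythroid and endothelial markers were low, and 8 such genes together reached at most 9.72 CPM. The 15 E2F target proliferation genes summed to 443 to 848 CPM in A young, 288 to 347 in B young, 378 to 550 in B old and 711 to 806 in C old. In these bulk samples, fewer cells of a type and less RNA per cell cannot be told apart.

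On a scale of CPM per kb of exon, the 10 genes fell into tiers that kept apart in all 4 groups. Ccng1, Cdkn1a, Cdkn2a and Cdkn2b had the highest levels, with group means of 52.97 to 222 CPM per kb, and their order among themselves differed between groups. In A young, Cdkn1a (99.9 ± 7.13, SD, n = 4) and Ccng1 (95.4 ± 3.498, SD, n = 4) did not differ beyond their spread. Glb1, Trp53, Mdm2, Cdkn1b and Cdkn2c followed, with group means between 9.78 and 27.6 CPM per kb. Rb1 was lowest, at 3.06 to 4.23 CPM per kb.

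**Figure D1:**
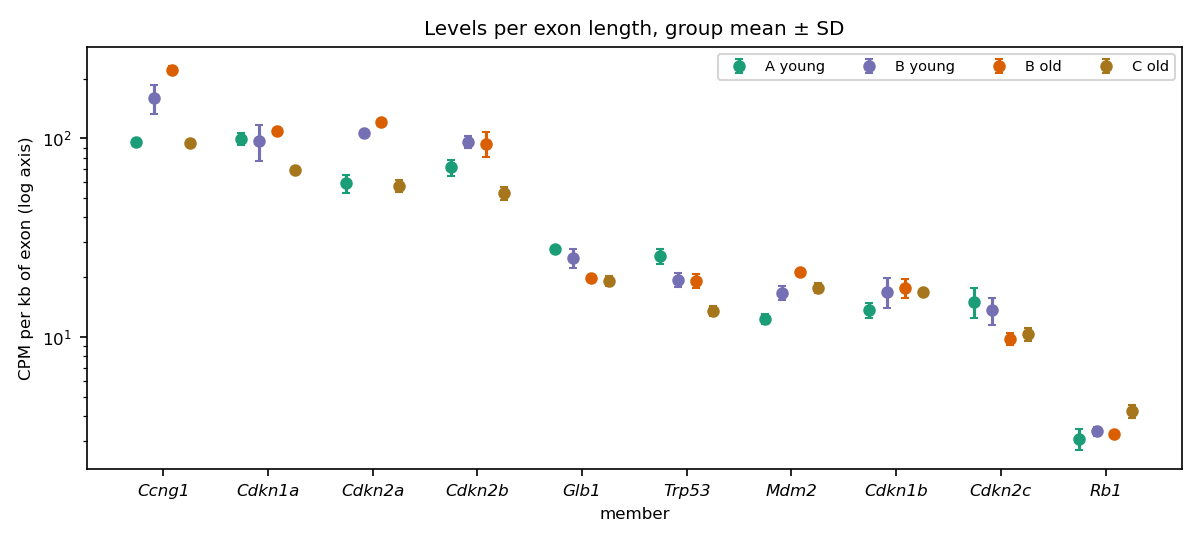
Group mean ± SD of each gene in CPM per kb of exon, on a log axis, for A young (n = 4), B young (n = 2), B old (n = 2) and C old (n = 3). Ccng1, Cdkn1a, Cdkn2a and Cdkn2b lie between 52.97 and 222, and Rb1 lies between 3.06 and 4.23 in every group.

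Age could be separated from batch only within batch B, where old and young were compared in a fit of all 11 libraries with a term for batch. Cell cycle inhibitors did not rise together in the old cells: Cdkn1a, Cdkn1b, Cdkn2a, Cdkn2b, Trp53 and Rb1 each differed by 0.18 or less on the log2 scale between B old and B young, while Ccng1 (0.47) and Mdm2 (0.35) gave positive and Cdkn2c (−0.48) and Glb1 (−0.33) negative differences that did not pass. Under edgeR's quasi-likelihood test with Benjamini-Hochberg adjustment over all 16132 genes tested and a threshold of 0.05, 0 of the 10 genes passed, against 2.23% of all genes (0.694% higher and 1.54% lower). At an unadjusted p below 0.05, 4 of the 10 did (Ccng1, Mdm2, Glb1 and Cdkn2c), where 16.1% of all genes did, and limma-trend and DESeq2 each passed 1, Ccng1. The libraries of B old and B young did not overlap for 5 of the 10, where 39.7% of all genes did not overlap between 2 and 2 libraries. The median log2 difference of the 10 was 0.03, and that of all genes tested 0.0044.

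**Figure D2:**
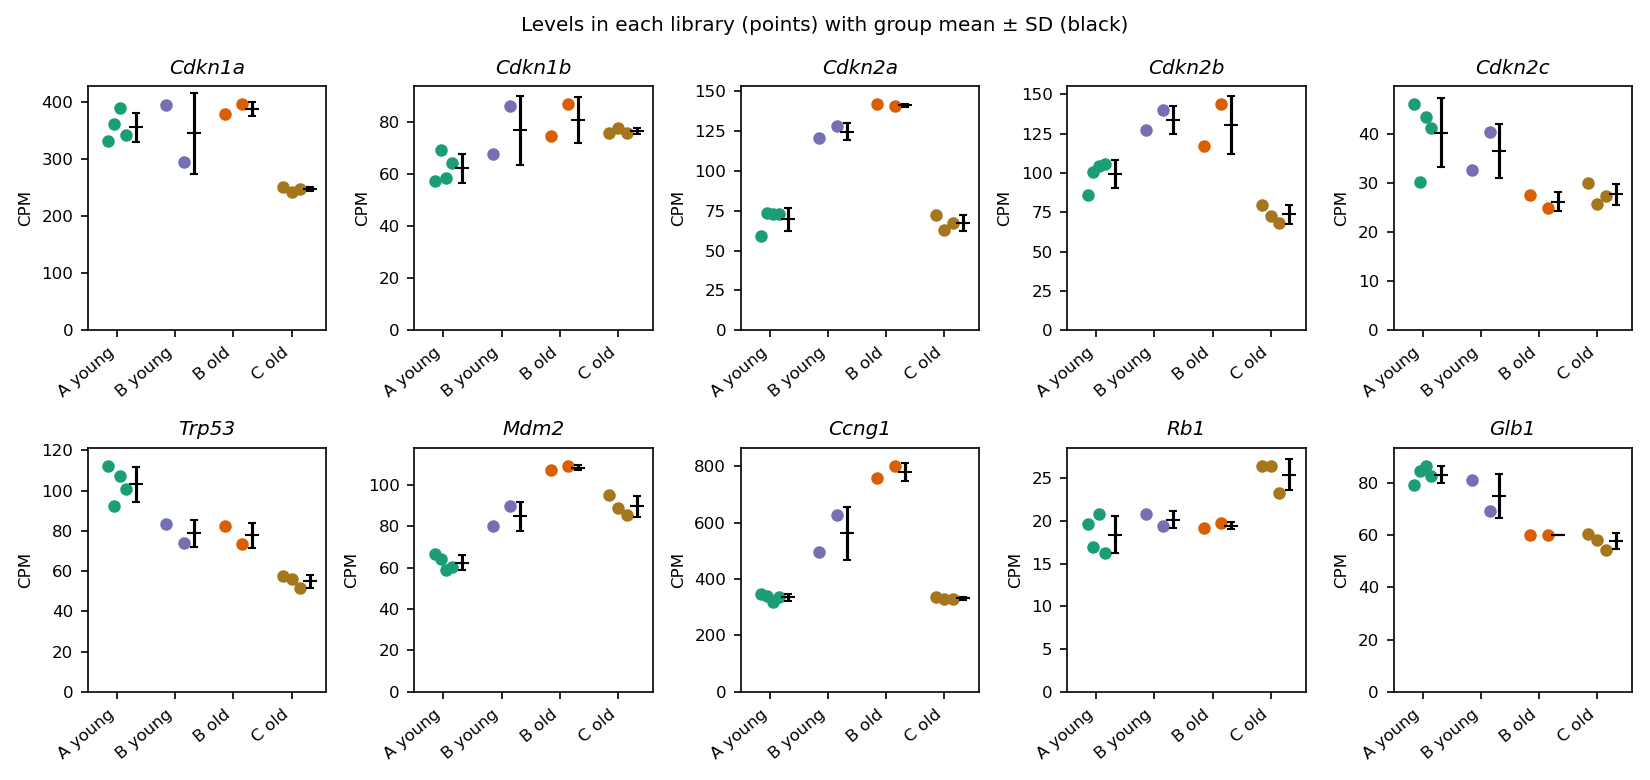
CPM of each of the 10 genes in each library (coloured points) with the group mean ± SD (black), for A young (n = 4), B young (n = 2), B old (n = 2) and C old (n = 3). Cdkn2a and Ccng1 are high in both groups of batch B, where Cdkn2a lies at 121 to 142 CPM, against 58.9 to 73.5 in A young and 62.7 to 72.2 in C old.

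Trp53 (chr11:69580359-69591873, plus strand, GRCm38), the transcription factor itself, was at 112, 92.2, 107 and 101 CPM in A young, at 83.5 and 74.0 CPM in B young, at 82.2 and 73.3 CPM in B old, and at 57.7, 55.9 and 51.3 CPM in C old. The A young libraries were the highest and the C old libraries the lowest, with no overlap between A young, batch B and C old, while within batch B the ages overlapped. The log2 difference of B old against B young was −0.02 (SE 0.12, 95% interval −0.27 to 0.23, edgeR adjusted p = 0.957). C old was lower than B old by a log2 difference of −0.50 (SE 0.08, edgeR adjusted p = 0.000116) and lower than A young by −0.85 (SE 0.08, edgeR adjusted p = 2.01e-06). B young against A young gave −0.37 (edgeR adjusted p = 0.0572), which did not pass, though it did with DESeq2 (adjusted p = 0.0415).

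Mdm2 (chr10:117688875-117710758, minus strand, GRCm38), the p53 ligase, was at 66.5, 64.3, 58.7 and 60.3 CPM in A young, at 79.9 and 89.8 CPM in B young, at 107 and 109 CPM in B old, and at 95.2, 88.5 and 85.2 CPM in C old. Both B old libraries were above both B young libraries, and all A young libraries were below the rest. The log2 difference of B old against B young was 0.35 (SE 0.11, 95% interval 0.13 to 0.58, edgeR adjusted p = 0.104). Without B young replicate 2 it was 0.43 and passed (edgeR adjusted p = 0.0230). Mdm2 was higher in B young than in A young (log2 difference 0.46, SE 0.12, edgeR adjusted p = 0.0175) and in C old than in A young (0.58, SE 0.07, edgeR adjusted p = 1.48e-05). It was lower in C old than in B old (−0.28, SE 0.07, edgeR adjusted p = 0.00350), a difference that was −0.08 and did not pass when libraries were scaled by their total counts (edgeR adjusted p = 0.316).

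Ccng1 (chr11:40748552-40755311, minus strand, GRCm38), the cyclin G1 gene, stood at 347, 339, 318 and 336 CPM in A young, at 496 and 628 CPM in B young, at 757 and 802 CPM in B old, and at 337, 329 and 328 CPM in C old. All 4 libraries of batch B were above all others, B old was above B young, and A young and C old overlapped. Of the 10 genes, Ccng1 had the smallest p between B old and B young, with a log2 difference of 0.47 (SE 0.12, 95% interval 0.22 to 0.73, edgeR adjusted p = 0.0525). It passed with limma-trend (adjusted p = 0.0400) and DESeq2 (adjusted p = 0.00503), and without B young replicate 2 (0.65, edgeR adjusted p = 0.00316) or without A young replicate 1 (0.47, edgeR adjusted p = 0.0420), and it did not pass when either B old library or B young replicate 1 was left out. Ccng1 was higher in B young than in A young (0.77, SE 0.13, edgeR adjusted p = 0.00336) and lower in C old than in B old (−1.24, SE 0.06, edgeR adjusted p = 1.80e-08), and C old against A young gave 0.04 (95% interval −0.09 to 0.18, edgeR adjusted p = 0.563). The overlap of A young and C old depended on TMM scaling. With scaling by total counts all C old libraries lay above all A young libraries, and Ccng1 passed as higher in C old.

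Cdkn1a (chr17:29090976-29100727, plus strand, GRCm38), the p21 gene, was at 330, 360, 388 and 341 CPM in A young, at 395 and 294 CPM in B young, at 379 and 395 CPM in B old, and at 251, 243 and 247 CPM in C old. The C old libraries were below all others and the remaining groups overlapped. The log2 difference of B old against B young was 0.17 (SE 0.13, 95% interval −0.11 to 0.45, edgeR adjusted p = 0.561), and it was −0.03 without B young replicate 2. Cdkn1a was lower in C old than in B old (−0.65, SE 0.06, edgeR adjusted p = 2.16e-06). Against A young it was lower in C old by −0.46 (SE 0.07, edgeR adjusted p = 0.000108), a value that was −0.17 and did not pass under scaling by total counts (edgeR adjusted p = 0.0526). The annotation places another transcript, AC167363.2, on the opposite strand over exons of Cdkn1a, so its reads may include that transcript's.

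**Figure D3:**
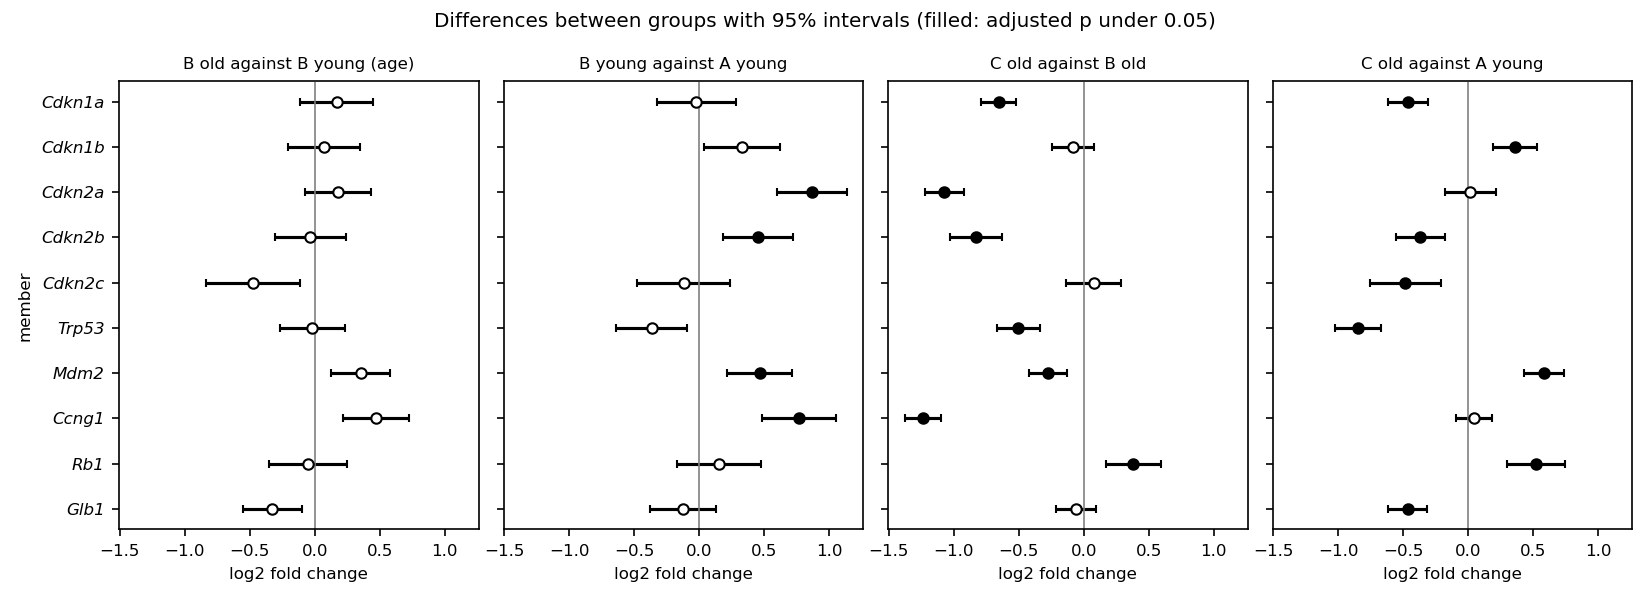
Log2 fold change of each of the 10 genes with its 95% interval in 4 comparisons, from edgeR; filled points have an adjusted p under 0.05. None is filled between B old and B young, where 2.23% of all genes passed. Between C old and B old 7 are filled, where 64.7% of all genes passed, with Ccng1 at −1.24 and Rb1 at 0.38.

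Beyond the members, 30 other direct targets of p53 were read as a list. Between B old and B young, 1 of the 30 passed and was higher and none passed as lower, where 0.694% of all genes were higher and 1.54% lower. Of the 30, 21 were positive, and their median log2 difference was 0.09 against 0.0044 over all genes. The target that passed was Eda2r, a p53-induced receptor of the TNF receptor family, at 32.9 and 37.8 CPM in B young and at 54.9 and 58.6 CPM in B old (log2 difference 0.68, SE 0.13, edgeR adjusted p = 0.00922). Both old libraries were above both young ones. Eda2r was at 18.1 to 22.9 CPM in A young and at 25.5 to 26.1 CPM in C old. Among 15 regulators of p53, such as the Mdm2 relative Mdm4 and the kinases Atm and Chek2, 0 passed. Of these regulators 5 had an unadjusted p below 0.05 in edgeR, where 16.1% of all genes did.

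**Figure D4:**
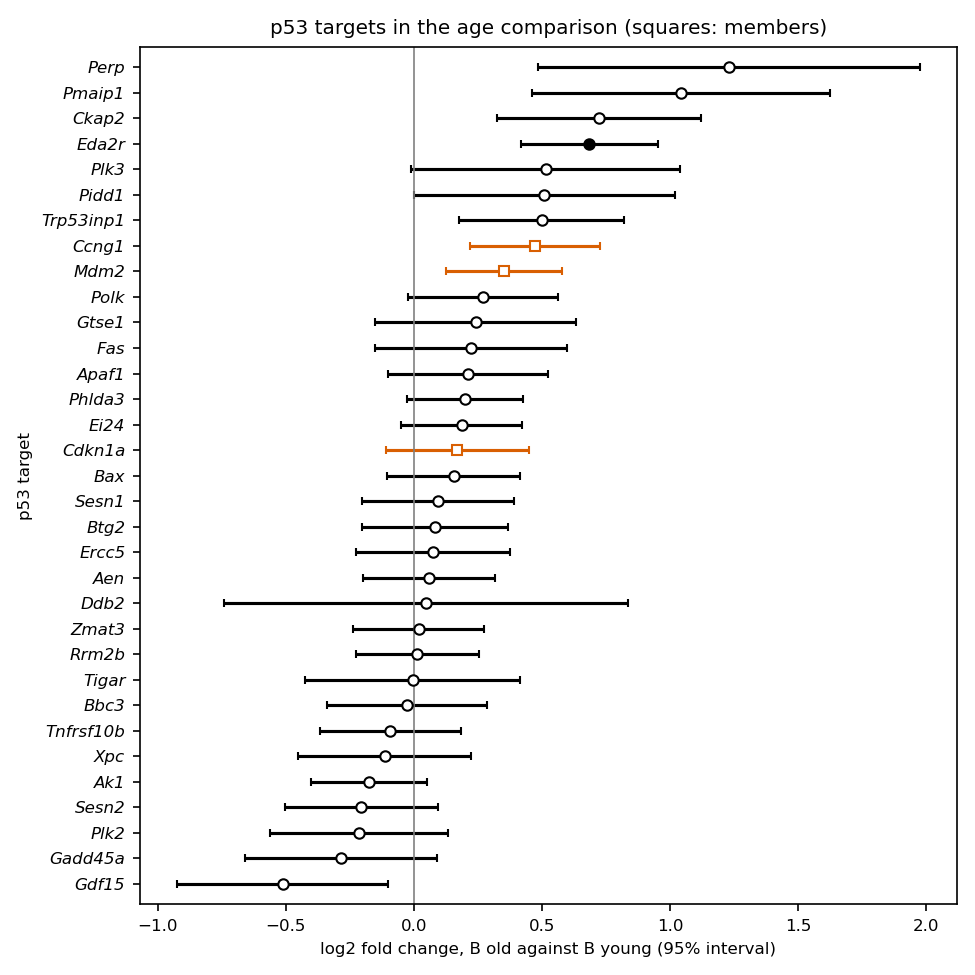
Log2 fold change of 30 p53 targets (circles) and of Cdkn1a, Mdm2 and Ccng1 (squares) between B old and B young, with 95% intervals from edgeR. Only Eda2r, at 0.68, is filled as passing an adjusted p of 0.05; Ccng1 lies at 0.47, Mdm2 at 0.35 and Cdkn1a at 0.17.

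Between batches p53 targets moved in both directions, as did all genes. Between B young and A young, 5 of the 30 were higher and 1 was lower. Of all genes 18.1% passed there, 9.39% higher and 8.71% lower. Plk2, a polo-like kinase gene, was higher (log2 difference 0.88, SE 0.16, edgeR adjusted p = 0.00446), as was Eda2r (0.84, SE 0.14, edgeR adjusted p = 0.00319), and Ckap2, a spindle protein gene, was lower (−0.65, SE 0.20, edgeR adjusted p = 0.0403). Between C old and B old, 11 were higher and 15 lower, where 64.7% of all genes passed (32.1% higher and 32.6% lower). Btg2, an antiproliferative gene, rose there from 37.7 and 40.5 CPM in B old to 309, 333 and 264 CPM in C old (2.94, SE 0.10, edgeR adjusted p = 1.42e-09), and Ckap2 was also higher (0.96, SE 0.08, edgeR adjusted p = 1.29e-06). Eda2r (−1.14, SE 0.07) and the death gene Bax (−0.89, SE 0.06) were lower in C old (edgeR adjusted p = 8.51e-08 and 1.84e-07).

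Between C old and A young, 14 of the 30 p53 targets were higher and 9 lower, where 63.8% of all genes passed (32% higher and 31.9% lower). Btg2 (log2 difference 3.25, SE 0.09) and Plk3, a stress-response kinase gene (2.53, SE 0.15), were higher, and Plk3 lay at 2.64 to 3.601 CPM in A young and at 14.6 to 19.5 CPM in C old. The antioxidant gene Sesn2 (−0.71, SE 0.07) and the adenylate kinase gene Ak1 (−0.61, SE 0.07) were lower. In this comparison the p53 target Btg2 was higher while Trp53 (−0.85) and Cdkn1a (−0.46) were lower.

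Cdkn1b (chr6:134920401-134925513, plus strand, GRCm38), the p27 gene, was at 57.1, 69.2, 58.3 and 64.0 CPM in A young, at 67.4 and 86.1 CPM in B young, at 74.3 and 86.7 CPM in B old, and at 75.8, 77.7 and 75.6 CPM in C old. The B old and C old libraries were all above the A young libraries, and B young overlapped with every group. B old against B young gave a log2 difference of 0.07 (SE 0.13, 95% interval −0.21 to 0.35, edgeR adjusted p = 0.833). C old was higher than A young by 0.36 (SE 0.08, edgeR adjusted p = 0.00139).

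Cdkn2a (chr4:89274471-89294653, minus strand, GRCm38), counted as p16Ink4a and p19Arf together, was at 58.9, 73.5, 73.0 and 72.8 CPM in A young, at 121 and 128 CPM in B young, at 142 and 141 CPM in B old, and at 72.2, 62.7 and 67.2 CPM in C old. Every library of batch B was above every library of batches A and C, at either age. Both B old libraries were above both B young libraries, but the log2 difference was 0.18 (SE 0.12, 95% interval −0.07 to 0.43, edgeR adjusted p = 0.481). B young was higher than A young by 0.87 (SE 0.12, edgeR adjusted p = 0.00178), and C old was lower than B old by −1.07 (SE 0.07, edgeR adjusted p = 1.05e-07). C old against A young gave 0.02 (SE 0.09, 95% interval −0.18 to 0.21, edgeR adjusted p = 0.879), and 0.31 under scaling by total counts, which passed (edgeR adjusted p = 0.0107).

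Cdkn2b (chr4:89306299-89311039, minus strand, GRCm38), the p15 gene, which lies next to Cdkn2a, was at 86.3, 100.8, 105 and 106 CPM in A young, at 128 and 140.2 CPM in B young, at 117 and 144 CPM in B old, and at 80.0, 72.6 and 68.3 CPM in C old. Batch B was again highest and C old lowest, with young and old overlapping within batch B. B old against B young gave a log2 difference of −0.03 (SE 0.13, 95% interval −0.31 to 0.24, edgeR adjusted p = 0.923). Cdkn2b was higher in B young than in A young (0.45, SE 0.13, edgeR adjusted p = 0.0258), a call that was lost without A young replicate 2, A young replicate 3 or B young replicate 2 (edgeR adjusted p = 0.0556, 0.0631 and 0.138). It was lower in C old than in B old (−0.83, SE 0.09, edgeR adjusted p = 7.76e-06) and than in A young (−0.37, SE 0.09, edgeR adjusted p = 0.00240), and the latter was −0.08 and did not pass under scaling by total counts (edgeR adjusted p = 0.468).

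Cdkn2c (chr4:109660876-109667189, minus strand, GRCm38), the p18 gene, was at 46.1, 30.2, 43.5 and 41.3 CPM in A young, at 32.7 and 40.5 CPM in B young, at 27.6 and 24.9 CPM in B old, and at 30.01, 25.8 and 27.3 CPM in C old. All 5 old libraries were below all 6 young libraries, with the lowest young library at 30.2 CPM and the highest old library at 30.01 CPM. With counts divided by library totals in place of TMM scaling the ages overlapped, with C old replicate 1 above A young replicate 2. The log2 difference of B old against B young was −0.48 (SE 0.17, 95% interval −0.84 to −0.11, edgeR adjusted p = 0.1701). C old against A young, whose libraries also entered the fit for age, gave −0.48 (SE 0.13, edgeR adjusted p = 0.00449), which was −0.19 and did not pass under scaling by total counts (edgeR adjusted p = 0.194). Batch differences at constant age did not pass, at −0.12 for B young against A young (95% interval −0.48 to 0.24) and 0.08 for C old against B old (95% interval −0.13 to 0.28). The interval for B young against A young reached the size of the difference between B old and B young.

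Rb1 (chr14:73183673-73325822, minus strand, GRCm38), the retinoblastoma gene, was at 19.6, 17.0, 20.9 and 16.2 CPM in A young, at 20.8 and 19.5 CPM in B young, at 19.2 and 19.8 CPM in B old, and at 26.4, 26.5 and 23.3 CPM in C old. The C old libraries were above all others. Between B old and B young the log2 difference was −0.05 (SE 0.14, 95% interval −0.35 to 0.25, edgeR adjusted p = 0.896). C old was higher than B old by 0.38 (SE 0.10, edgeR adjusted p = 0.00417) and higher than A young by 0.52 (SE 0.10, edgeR adjusted p = 0.000713). Exons of Rcbtb2 and Lpar6 overlap Rb1 on the opposite strand, so its counts are uncertain.

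Glb1 (chr9:114401076-114474898, plus strand, GRCm38), the beta-galactosidase gene, was at 79.0, 84.4, 86.5 and 82.5 CPM in A young, at 81.0 and 69.1 CPM in B young, at 59.9 and 59.9 CPM in B old, and at 60.4, 58.2 and 54.2 CPM in C old. All 5 old libraries were below all 6 young libraries, with the highest old library at 60.4 CPM and the lowest young library at 69.1 CPM. With counts divided by library totals in place of TMM scaling the ages overlapped, with C old replicate 1 above B young replicate 2. The log2 difference of B old against B young was −0.33 (SE 0.11, 95% interval −0.55 to −0.10, edgeR adjusted p = 0.133), which was −0.44 and passed without B young replicate 2 (edgeR adjusted p = 0.0162). C old against A young gave −0.47 (SE 0.07, edgeR adjusted p = 7.17e-05). C old against B old gave −0.06 (95% interval −0.21 to 0.09) and B young against A young −0.12 (95% interval −0.38 to 0.13). Tmppe, on the same strand, shares exon sequence with Glb1, so reads of the shared stretch may come from either.

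When all old libraries were set against all young libraries with no term for batch, 4 of the 10 genes passed, where 18% of all 14689 genes tested did (9.33% higher and 8.65% lower). Mdm2 was higher (log2 difference 0.49, SE 0.13, edgeR adjusted p = 0.0248), and Trp53 (−0.55, SE 0.15, edgeR adjusted p = 0.0264), Cdkn2c (−0.51, SE 0.12, edgeR adjusted p = 0.0194) and Glb1 (−0.44, SE 0.09, edgeR adjusted p = 0.0108) were lower. Within batch B the same genes gave 0.35, −0.02, −0.48 and −0.33, none of which passed. Old and young libraries did not overlap for 2 of the 10, Cdkn2c and Glb1, where 7.32% of all genes did not. For both genes the ages overlapped when counts were divided by library totals. Which genes passed depended on the scaling, which moved the median of all genes by 0.22 when total counts replaced TMM. Mdm2, Cdkn1b and Rb1 then passed as higher, and Trp53 (−0.33), Cdkn2c (−0.28) and Glb1 (−0.21) did not pass (edgeR adjusted p = 0.0575, 0.140 and 0.0807).

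At constant age, more of the 10 genes passed between batches than between ages within batch B, and the same held over all genes. Of all genes, 2.23% passed for age, 18.1% between B young and A young and 64.7% between C old and B old. The difference in counts was not tested. Between B young and A young 4 of the 10 were higher and none lower (Cdkn2a, Ccng1, Mdm2 and Cdkn2b), where 9.39% of all 14840 genes were higher and 8.71% lower, and 5 of the 10 did not overlap, where 40.9% of all genes did not. Between C old and B old 7 of the 10 passed, 1 higher (Rb1) and 6 lower (Ccng1, Cdkn2a, Cdkn2b, Cdkn1a, Trp53 and Mdm2), where 64.7% of all 15651 genes passed and 32.6% were lower. In this comparison 7 of the 10 did not overlap, where 76.3% of all genes did not. Both comparisons share libraries of batch B with the age comparison. Of the 15 E2F target proliferation genes, 12 were lower in B young than in A young, where 8.71% of all genes were. Between C old and B old 9 of the 15 were higher, where 32.1% of all genes were higher and 64.7% passed in either direction. The 16 haematopoietic markers were lower in C old than in B old in 16 of 16, where 32.6% of all genes were lower. The part of both lists in the differences of the 10 genes was not tested.

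C old and A young differ in both age and batch, which cannot be told apart between them. Of the 10 genes 8 passed, where 63.8% of all 15021 genes did, with 3 higher (Mdm2, Rb1 and Cdkn1b) and 5 lower (Trp53, Cdkn2c, Glb1, Cdkn1a and Cdkn2b). For the same 8 genes the libraries did not overlap, where 64.5% of all genes did not. Scaling by total counts moved the median of all genes by 0.31 and the split to 5 higher and 2 lower. Cdkn2a and Ccng1 then joined the higher genes, and Trp53 and Glb1 were the lower genes. All 16 haematopoietic markers were lower in C old, where 31.9% of all genes were, with a median log2 difference of −2.84. The part of these markers in the differences of the 10 genes was not tested.

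**Figure D5:**
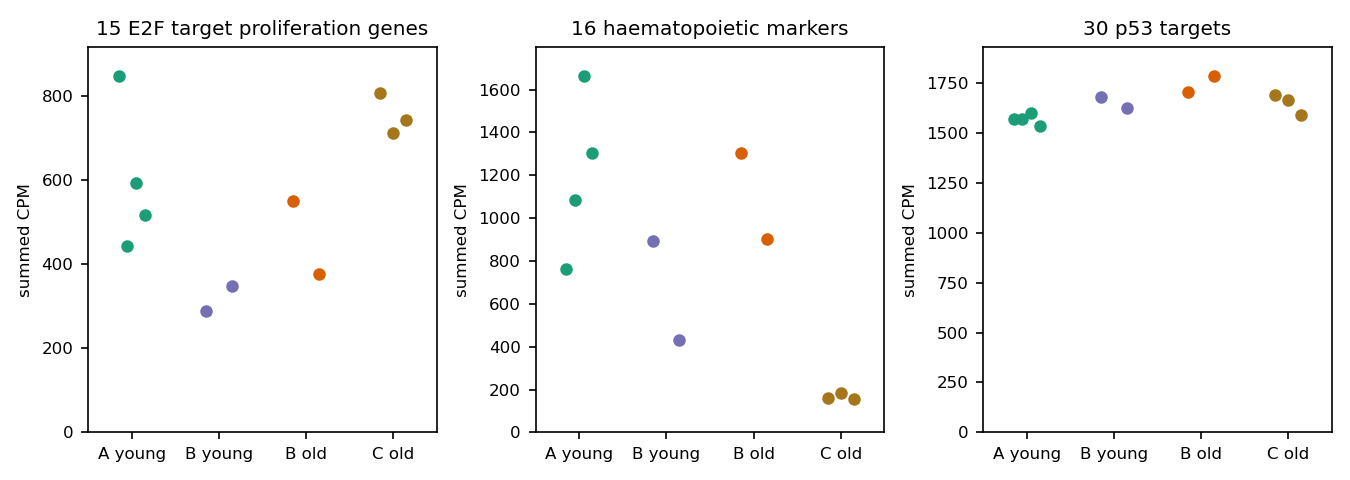
Summed CPM in each library of 15 E2F target proliferation genes, 16 haematopoietic markers and 30 p53 targets, by group. Haematopoietic markers lie at 157 to 184 in C old and at 433 or more elsewhere, proliferation genes are lowest in B young (288 to 347), and p53 targets lie between 1534 and 1786 in all libraries.

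None of the partners of the 10 genes read here passed between B old and B young. Of 12 G1 cyclins, kinases and their regulators, 0 passed and 2 had an unadjusted p below 0.05 in edgeR, where 16.1% of all genes did. Cdk4, the kinase that INK4 proteins bind, had group means of 206 CPM in B young and 243 CPM in B old (log2 difference 0.24, SE 0.12, edgeR adjusted p = 0.340). Of 12 pocket proteins and E2F factors, 0 passed and 1 had an unadjusted p below 0.05, the Rb1 relative Rbl1 (0.43, SE 0.17, edgeR adjusted p = 0.230). The 3 other inhibitors also gave 0, with 1 at an unadjusted p below 0.05, Cdkn1c, the p57 gene (−0.55, SE 0.25, edgeR adjusted p = 0.302). Among 15 regulators of the Ink4-Arf locus, such as the Polycomb genes Bmi1 and Ezh2, 0 passed and 1 had an unadjusted p below 0.05, with a median log2 difference of 0.0021.

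Proliferation genes and senescence-associated genes were read beside the inhibitors. Of the 15 E2F target proliferation genes, 0 passed in edgeR between B old and B young. An unadjusted p below 0.05 was reached by 7 of them, and by 16.1% of all genes. All 15 were positive with a median log2 difference of 0.56. Mki67, which marks cycling cells, was at 21.6 and 18.4 CPM in B young and at 35.0 and 24.7 CPM in B old (0.57, SE 0.27, edgeR adjusted p = 0.307). Of 24 senescence-associated genes 22 were tested, 1 was higher and 2 were lower, where 0.694% of all genes were higher and 1.54% lower. The collagenase gene Mmp13 rose from 449 and 598 CPM in B young to 1154 and 1201 CPM in B old (1.17, SE 0.15, edgeR adjusted p = 0.000847). The protease inhibitor gene Serpine2 went from 1171 and 1759 CPM to 435 and 608 CPM (−1.49, SE 0.18, edgeR adjusted p = 0.000750), and Igfbp3, an IGF-binding protein gene, from 37.9 and 52.5 CPM to 9.22 and 16.2 CPM (−1.82, SE 0.30, edgeR adjusted p = 0.00470). Of 16 lysosomal hydrolases and related genes set beside Glb1, 0 passed in edgeR, 4 had an unadjusted p below 0.05 and 3 were positive, with a median log2 difference of −0.09.

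Some markers of cell identity also differed between B old and B young. Of the 11 MSC markers 2 passed, both lower, where 1.54% of all genes were lower. They were Pdgfra (log2 difference −0.86, SE 0.15, edgeR adjusted p = 0.00590) and Nt5e, which encodes CD73 (−1.34, SE 0.25, edgeR adjusted p = 0.00932). Of the 16 haematopoietic markers 0 passed and 10 had an unadjusted p below 0.05, where 16.1% of all genes did. All 16 were positive, with a median log2 difference of 0.77. Of the 8 erythroid and endothelial markers 5 were tested, and 0 passed at an adjusted or an unadjusted p below 0.05. The part of these markers in the values of the 10 genes was not tested.

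The genes whose log2 CPM followed Cdkn1a, Cdkn2a and Trp53 most closely over the 11 libraries were read as a description, since libraries of a group share batch and age. Pearson's r was computed against 16131 other genes, and those with high r with Cdkn1a included Hpcal1 (0.970) and Adcy7 (0.968). For Cdkn2a it was highest for Bc1 (0.975), which lay at 0 to 6.06 CPM, Mgat2 (0.974) and Klhl9 (0.973). For Trp53 it was highest for Fam110a (0.992), Hdgf (0.990) and Ppm1g (0.986).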

How the data were processed

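RNA sequencing counts of 11 libraries of mouse MSCs were analysed. The authors deposited raw whole-number counts per gene; per the labels the libraries were made from poly(A) RNA and the genome build was mm10 (GRCm38), and the study's methods, written for its oxygen experiment, name single-end sequencing, alignment with STAR inside zUMIs and counting with featureCounts. Whether counting used strand is not given in the sources used here. Libraries were grouped by the age and batch in their titles. Of 28222 genes, 28179 matched the GENCODE M21 annotation by gene ID.

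Genes were filtered with filterByExpr (minimum count 5), scaled with TMM and tested two-sided with edgeR 4.0.16 (quasi-likelihood), adjusted with the Benjamini-Hochberg method over all genes tested at 0.05; limma 3.58.1 and DESeq2 1.42.0 in R 4.3.3 were alternatives. The age fit held terms for batch and age in all 11 libraries; the other comparisons used the libraries of their groups. Intervals are 95%, and the log2 CPM used for likeness has a prior count of 2. The fits were tested on simulated counts. Floors cover counting error only.

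The 10 genes and the lists were chosen with earlier results of these data known. Named beyond them were, by rule, the p53 targets with the smallest p past the threshold (up to 5 in each direction for age, up to 2 elsewhere), up to 2 in each direction from each other list for age, and 3 genes most like Cdkn1a, Cdkn2a and Trp53; Mdm4, Cdk4, Rbl1, Cdkn1c, Mki67 and further examples were named after their values were seen. A gene that the rule on likeness names is not reported here.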

Additional observations from a re-analysis of the deposited data

Results flagged for a closer look

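In A young, the only group with enough libraries for this check, Cdkn2a in replicate 1 lay apart from the other libraries, at 58.9 CPM against 72.8 CPM in the next lowest (the gap was 0.948 of the range of the 4 libraries, above the 95% critical value of Dixon). About 1 in 20 groups is expected to show such a gap by chance, and 10 genes were examined in this group. Without this library C old against A young gave a log2 difference of −0.067 for Cdkn2a in place of 0.017, and neither passed.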

How the results depend on the processing

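The count of the 10 genes that passed for age within batch B was 0, and became 1 with limma-trend, DESeq2, total counts or a minimum count of 10 (Ccng1 each time) and 2 with no filter (Ccng1 higher, Cdkn2c lower); it ranged from 0 to 3 when libraries were left out in turn, with 3 (Mdm2, Ccng1 and Glb1) without B young replicate 2 and 1 without A young replicate 1. Leaving out libraries gave 1 to 5 with no batch term (4 in all libraries), 2 to 6 for B young against A young (4; 2 without A young replicate 3 or B young replicate 2), 7 to 8 for C old against B old (7) and 8 to 8 for C old against A young (8). With no batch term, it was 1 without A young replicate 3 or 4, and 2 without A young replicate 1 or 2 or any C old replicate. Where a group was left with 1 library, that library was assumed to vary like the others.

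Shared replicate numbers were checked for pairing. Deviations of same-number pairs correlated at −0.111 to 0.135 (median 0.028, 2 of 13 pairs above 0.1), and those of different-number pairs at −0.135 to 0.111 (median 0.0055, 1 of 31 above 0.1). In groups of 2 libraries the deviations mirror each other, so many of these values are not independent and the check cannot exclude pairing. With the replicate block the count was 0 with no batch term and 1 for B young against A young, and 0, 7 and 8 elsewhere; over all genes it was 0 against 2641 and 729 against 2686. Over all genes the age count of 360 became 640 with DESeq2, 1094 with no filter and 123 from batch B alone, and B young against A young gave 4171 in a fit of all groups.

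Log2 differences that changed sign passed the test neither before nor after. Under total counts these were Cdkn2b 0.028, Trp53 0.046 and Rb1 0.015 for age within batch B, Cdkn1a 0.013 and Cdkn2b 0.011 with no batch term, Cdkn1a 0.053 for B young against A young, and Cdkn1b 0.11 and Glb1 0.13 for C old against B old. Cdkn1a was 0.0049 with the replicate block for B young against A young, and Cdkn2a was −0.043 and Ccng1 −0.015 for C old against A young in a fit of all groups. The cause was not tested. Total counts moved the share of higher calls among all calls from 31.1% to 44.8% for age within batch B, from 51.9% to 86.8% with no batch term, from 51.9% to 66.4%, from 49.6% to 62.9% and from 50.1% to 72.5% for B young against A young, C old against B old and C old against A young. Leaving out libraries gave values of both signs, with these ranges: Cdkn2b −0.19 to 0.11, Cdkn1b −0.097 to 0.25, Trp53 −0.11 to 0.071, Rb1 −0.10 to 0.00024, Cdkn1a −0.031 to 0.39 for age within batch B, and Cdkn2a −0.019 to 0.30 with no batch term, and Cdkn1a −0.25 to 0.17, Cdkn2c −0.28 to 0.027 for B young against A young, and Cdkn1b −0.19 to 0.030, Cdkn2c −0.0013 to 0.15 for C old against B old, and Cdkn2a −0.067 to 0.058 for C old against A young. Each of the 10 genes had 200 or more reads in each library, and age within batch B rested on 2 libraries a group.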

Other observations

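Genes around Cdkn2a on chromosome 4 were looked at after the batch difference of Cdkn2a had been seen. Of 15 genes within 1.5 Mb, Cdkn2a and Cdkn2b included, Klhl9 and Mtap, a gene of methionine salvage, differed between the same batches. Over all genes, 18.1% passed between B young and A young and 64.7% between C old and B old. Several of the 15 lay at very low levels, such as Gm12602 between Klhl9 and Mtap, with group means of 0.208 to 1.10 CPM. Gm12602 was higher in C old than in B old (1.30, edgeR adjusted p = 0.0236) and was not tested between B young and A young. Klhl9 was at 129 to 134 CPM in A young, 214 to 272 in B young, 252 to 287 in B old and 126 to 127 in C old. B young was higher than A young for Klhl9 by a log2 difference of 0.91 (edgeR adjusted p = 0.00164) and for Mtap by 0.75 (edgeR adjusted p = 0.00307). C old was lower than B old for Klhl9 by −1.10 and for Mtap by −0.89 (edgeR adjusted p = 8.02e-08 and 4.00e-07). Further along the same side, Focad (−0.08, edgeR adjusted p = 0.772) and Hacd4 (−0.09, edgeR adjusted p = 0.647) did not pass between B young and A young. Between C old and B old Hacd4 did not pass (−0.10, edgeR adjusted p = 0.226), and Focad (0.42, edgeR adjusted p = 0.00170) and Mllt3 (0.47, edgeR adjusted p = 0.000560) were higher in C old. Between B old and B young, Klhl9 (0.15, edgeR adjusted p = 0.552) and Mtap (0.07, edgeR adjusted p = 0.815) did not pass.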
